A study of Homo sapiens with 6 samples.

Results

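The proteasome genes, whose symbols are PSM followed by a letter from A to G and a number, were taken from the retained intron and skipped exon tables of an RNA-seq study of SFSWAP, a nuclear protein related to the SR family of splicing factors. An intron or exon entered when it had a mean of at least 20 junction reads per library. This gave 102 introns in 31 genes, of 148 proteasome introns and 21158 introns in all, and 483 exon events in 41 genes, of 591 proteasome events and 153168 events in all. The 483 events had 400 different pairs of exon start and end, and forms of 1 exon that differ in an end are among these. Of the introns 76 in 29 genes, and of the exon events 242 in 36 genes, also had at least 5 reads of each form and were tested. The other 26 introns and 241 exon events had fewer reads than that of one form. The intron nearest above the read minimum was in PSME4 (20.7 reads) and the nearest below it in PSMC4 (19.2 reads), and the nearest exon events were in PSMA7 (20.2 reads) and PSME3 (15.2 reads).

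The 26S proteasome is the large protease that degrades ubiquitin-tagged proteins. Its barrel-shaped core is built from rings of alpha and beta subunits, and the active sites sit on beta subunits. A regulatory particle caps the core: its base holds the ATPases that unfold substrates, and its lid removes the ubiquitin chain. The genes of these subunits are known to be expressed in concert, and the transcription factor NFE2L1 raises them when proteasome activity is low.

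The cells were HEK293A-TOA, a human embryonic kidney line grown in medium with tetracycline-free serum. The siSFSWAP group (3 libraries) received 40 nM of a mixture of 2 siRNAs against SFSWAP and was collected 5 days after transfection, and the siNT group (3 libraries) received a non-target siRNA. Polyadenylated RNA was sequenced, so each value averages over all cells of a culture, and fewer cells with an RNA cannot be told apart from less RNA per cell. The study asked how SFSWAP affects splicing, in particular of introns that stay in finished RNA.

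The skipped exon table held 19515010 to 31980079 junction reads per siSFSWAP library and 20820210 to 55274283 per siNT library, and siNT library a was the deepest. SFSWAP (ENSG00000061936.10) served as a check of which numbered group of the tables is which. It had 34.7, 34.6 and 21.3 CPM (spliced junction reads of the gene, scaled to the total of the library in the usual way) in the siSFSWAP libraries, against 79.7, 86.5 and 80.2 in the siNT libraries, a log2 change of −1.46 (SE 0.16, limma adjusted p = 0.00035). Of the 6 markers listed for HEK293-derived cells only LIN28B reached the read minimum, at 7.90 ± 0.20 CPM in siSFSWAP and 10.8 ± 1.9 in siNT (SD, n = 3 each), and none of the 7 colorectal epithelial markers did. The other 12 markers had no entry in the skipped exon table, which lists only genes with alternative forms of an exon.

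An intron or exon event was called when its adjusted p did not exceed 0.05 and its inclusion differed by 20 percentage points or more. Of the 76 tested proteasome introns 1 was called lower, that of PSMD11, against 1.67% of all tested introns. Of the 242 tested proteasome exon events 3 were called lower, in PSMG1 and PSMD13, against 0.705% of all events. In spliced reads 24 of 41 proteasome genes were lower in siSFSWAP cells, against 15.6% of all tested genes. These 3 readouts are described in turn.

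PSMD11 (ENSG00000108671.11) encodes a subunit of the lid. It held the only proteasome intron that was called, a stretch of 769 bases at chr17:32479377-32480145 on the plus strand of GRCh38, between exons 10 and 12 of its 14 exons. GENCODE release 44 lists no intron with these ends: exon 11, a coding exon of 36 bases at chr17:32479851-32479886, lies inside it, after an intron of 474 bases and before one of 259 bases. The sequences below show why the 2 tables count the same RNA here. Exon 11 is given in capitals with the 20 intron bases before it and the 6 after it. In the junctions, 20 bases of the first exon are in lower case and 20 bases of the second in capitals, and each plus strand sequence reads 5′ to 3′.
PSMD11 exon 11: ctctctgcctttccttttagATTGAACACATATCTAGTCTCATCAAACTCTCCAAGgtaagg
exon 10 to exon 11: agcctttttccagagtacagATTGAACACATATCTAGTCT
exon 11 to exon 12: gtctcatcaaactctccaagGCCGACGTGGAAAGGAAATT
exon 10 to exon 12: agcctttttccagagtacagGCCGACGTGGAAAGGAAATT

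Inclusion of the 769-base stretch, the share of boundary reads against exon 10 to exon 12 reads after correction for length, was 25.2%, 30.1% and 25% in the siSFSWAP libraries, against 84.3%, 84.0% and 82.9% in the siNT libraries. The groups were far apart, and the spread within each was small. The means were 26.8 ± 2.9% in siSFSWAP and 83.7 ± 0.77% in siNT (SD, n = 3 each), a change of −56.9 points (quasi-binomial test with limma-moderated dispersion, adjusted p = 0.00036; 0.0497 with limma on the log2 odds). This change rests on the reads that join exon 10 to exon 12, which are the spliced form of the retained intron and at the same time the skipped form of exon 11.

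Those exon 10 to exon 12 reads numbered 40, 29 and 63 in the siSFSWAP libraries, against 4, 2 and 3 in the siNT libraries, with the same counts in both tables. Scaled to the library total of the skipped exon table they averaged 1.86 ± 0.86 CPM in siSFSWAP and 0.101 ± 0.038 CPM in siNT (SD, n = 3 each), 18.5 times as many. Reads across the ends of the 769-base stretch numbered 27, 25 and 42 in siSFSWAP and 43, 21 and 29 in siNT. Scaled to the library total of the retained intron table these boundary reads averaged 9.50 ± 3.7 CPM in siSFSWAP and 7.53 ± 2.4 CPM in siNT, and the libraries of the groups overlapped (two-sided exact permutation test, p = 0.6; 3 against 3 libraries cannot give a p below 0.1).

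Exon 11 itself was included less. Its inclusion was 86.5%, 85.0% and 70.7% in the siSFSWAP libraries, against 99.3%, 99.3% and 98.6% in the siNT libraries, and no library of one group reached the range of the other. The change of −18.3 points was past the adjusted p (3.56e-20) but under the 20 points needed for a call. Without siSFSWAP library c it was −13.3 points, and with limma on the log2 odds the adjusted p was 0.055. Reads into and out of exon 11 numbered 350, 225 and 207 in siSFSWAP and 794, 378 and 294 in siNT, or 10.6 ± 1.15 CPM in siSFSWAP and 14.9 ± 1.09 in siNT (SD, n = 3 each). The exon length is a multiple of 3, so its loss keeps the reading frame. Its 5′ splice site, AAGgtaagg, matches 7 of 9 bases of the human consensus, as do at least 7 bases in 36.1% of the 43368 tested exons, and 94.4% of the 18 bases before its AG are C or T, against a median of 72.2% over those exons.

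**Figure D1:**
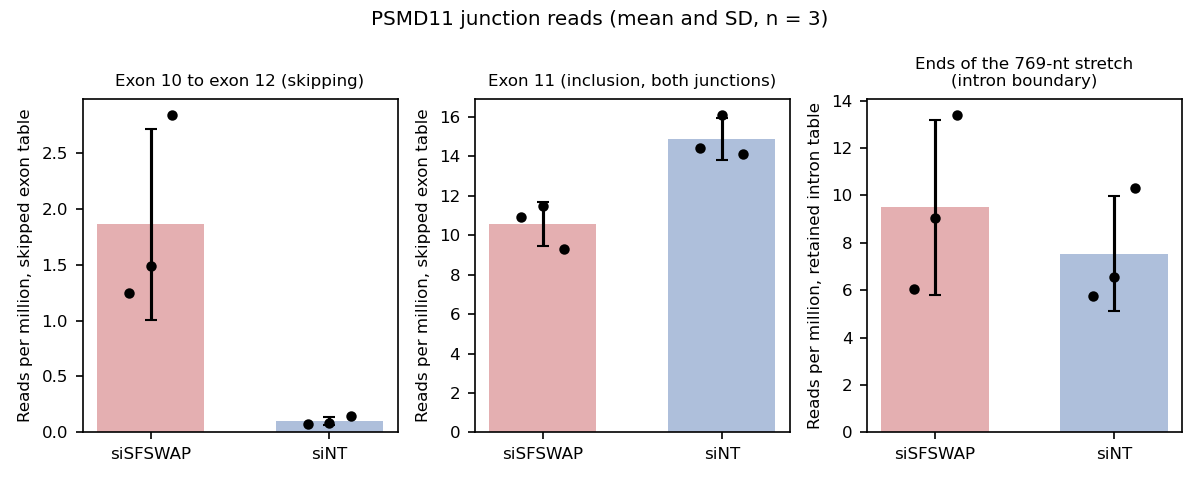
PSMD11 junction reads (CPM, scaled to the junction reads of the table they come from) in each library (points), with mean and SD (bars, n = 3), for the junction that skips exon 11, the junctions that include it, and the ends of the 769-base stretch. Skipping reads were higher in every siSFSWAP library than in any siNT library, inclusion reads were lower in every siSFSWAP library, and boundary reads overlapped.

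Apart from exon 11, PSMD11 exon 6 of 195 bases was included at 99.9% in siSFSWAP and 99.7% in siNT. An unannotated intron of 676 bases at the 3′ end of the gene was included at 78.1 ± 4.6% in siSFSWAP and 94.0 ± 1.3% in siNT (SD, n = 3 each), a change of −15.9 points that did not pass the test (adjusted p = 0.19). It had 4, 5 and 3 spliced reads in siSFSWAP, and 3, 2 and 1 in siNT.

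Across all tested introns 170 of 10155 (1.67%) were called lower and 14 (0.138%) higher in siSFSWAP. Among the 76 proteasome introns the calls were 1 lower, PSMD11, and 0 higher. No tested proteasome intron rose by 20 points, and the largest rise was 11.4 points. Of the introns with a rise, 0 had an unadjusted p under 0.05 by the quasi-binomial test and 2 by limma on the log2 odds. Limma on the log2 odds also called 1 lower and 0 higher. By the adjusted p alone the same 1 intron was lower, against 3.07% of all, and 0 were higher, against 0.355%. All siSFSWAP libraries lay below all siNT libraries in 6 of the 76, against 15.3% of all introns, and above them in 6, against 6.02%. The median change was −0.18 points over proteasome introns and −0.52 points over all tested introns, and 47 of the 76 (61.8%) had a lower mean in siSFSWAP, against 61.2% of all introns. Of the called lower introns 14 of 170 contained a skipped exon with the same spliced junction, as the PSMD11 stretch does, and so did 7 of the 14 called higher and 565 of the 9971 not called. Among the 76 proteasome introns there were 3 of this kind, in PSMD11, PSMB4 and PSMC5. With these 3 set aside no proteasome intron was called in either direction.

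Tested proteasome introns were mostly well spliced in both groups. Of the 26 not tested, most had too few spliced reads, such as a PSMA5 intron at 100% in siSFSWAP and 99.6% in siNT. A PSMD14 intron had too few reads of the unspliced form instead. In siNT 45 of the 76 (59.2%) had an inclusion under 5%, against 35.1% of all tested introns, and only 4 (5.26%) lay between 20% and 80%, against 18.1% of all. Their median inclusion was 3.26%, 3.32% and 4.27% in the siSFSWAP libraries, against 3.45%, 4.55% and 4.21% in the siNT libraries. The median length was 182 bases and the median GC content 48.5%, against 161 bases and 55.4% over all tested introns. By role the median change was −0.18 points in 10 introns of core alpha genes, −0.17 in 3 of core beta genes, −0.16 in 27 of base genes, 0.10 in 13 of lid genes and −0.83 in 17 of activator genes. It was 5.58 points in 3 introns of core chaperone genes, −1.39 in 2 of PSMB10 and −1.93 in 1 of PSMD10.

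The other introns with the largest changes at 50 or more reads, taking 1 per gene, did not pass the test. An unannotated intron of 485 bases in the 5′ untranslated region of PSMG3, a chaperone of core assembly, was included at 91.6%, 93.8% and 88.5% in siSFSWAP, against 85.1%, 74.7% and 79.7% in siNT (adjusted p = 0.36). Its spliced reads were only 4, 2 and 3 in siSFSWAP and 12, 10 and 7 in siNT. A 487-base form of this PSMG3 intron, also unannotated, had a difference of 5.58 points (adjusted p = 0.52). Intron 3 of PSMD13, 85 bases long, follows the 35-base exon 3 described below and was included at 53.5 ± 7.7% in siSFSWAP and 45 ± 2.5% in siNT (SD, n = 3 each), with an adjusted p of 0.40. Intron 5 of PSMB4, which encodes a core beta subunit, was at 4.86%, 4.78% and 5.24% in siSFSWAP, against 4.67%, 10.3% and 12.4% in siNT, so that siNT library a lay with the siSFSWAP libraries. The PSMB4 change was −4.18 points with all libraries (adjusted p = 0.35) and −6.41 without siNT library a (adjusted p = 9.25e-08). The changes were −3.56 points for intron 10 of PSME1, −2.74 for intron 2 of PSME2 and 2.75 for intron 5 of PSMC2, and all 3 overlapped between groups. Without siNT library a the PSME1 change was −5.14 (adjusted p = 0.048), that of PSME2 −4.12 (adjusted p = 0.53) and that of PSMC2 3.28 (adjusted p = 0.13).

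**Figure D2:**
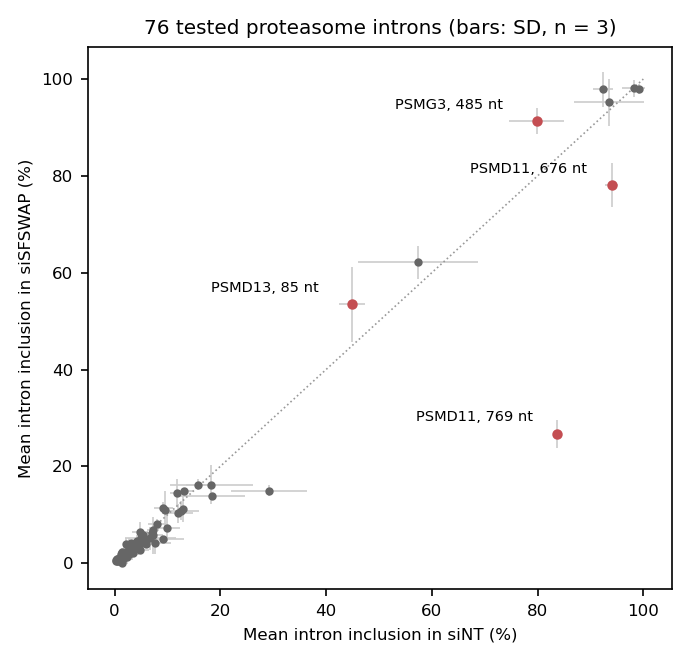
Mean inclusion of the 76 tested proteasome introns in siSFSWAP (vertical axis) and siNT (horizontal axis), with SD bars over 3 libraries and the line of equal inclusion. The PSMD11 stretch of 769 bases, at 26.8% in siSFSWAP and 83.7% in siNT, stands away from the line, near which most other introns lie.

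Among all tested exon events 339 of 48100 (0.705%) were called lower and 819 (1.7%) higher in siSFSWAP. Among the 242 proteasome events 3 were called lower (1 without siSFSWAP library c) and 0 higher. No tested proteasome event rose by 20 points, and the largest rise was 9.93 points. By the quasi-binomial test 20 events that were lower and 19 that were higher had an unadjusted p under 0.05. Limma on the log2 odds called 0 in either direction, although all 3 called events had an unadjusted p under 0.05 there. By the adjusted p alone 12 proteasome events were lower, against 2.4% of all events, and 7 were higher, against 4.11% of all. With limma on the log2 odds 0 of these 12 and 7 events passed, and their adjusted p ranged from 0.0549 to 0.382. By that test 22 proteasome events that were lower and 14 that were higher had an unadjusted p under 0.05. The median change was 0.02 points over proteasome events and 0.30 over all. The 19 events past the adjusted p lay in 9 genes, and forms of 1 exon share a splice site and the same skipping reads, so they are not separate findings. Reads at a shared splice site count for each form that uses it, so the inclusion of a form is not its share among all forms.

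PSMG1 (ENSG00000183527.12) encodes a chaperone that helps to assemble the alpha ring of the core. Its exon 4 of 7, a coding exon of 63 bases at chr21:39179924-39179986 on the minus strand of GRCh38, was called lower, and so was a form of 48 bases that begins at an unannotated 3′ splice site inside the exon. Both sequences are shown to make the alternative starts visible, with the exon in capitals and intron or skipped bases in lower case.
PSMG1 63-base exon: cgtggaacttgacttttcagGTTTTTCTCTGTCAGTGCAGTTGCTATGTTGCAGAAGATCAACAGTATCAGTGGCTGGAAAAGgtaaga
PSMG1 48-base form: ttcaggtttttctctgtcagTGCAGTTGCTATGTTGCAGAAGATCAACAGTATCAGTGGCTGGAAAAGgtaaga

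The 63-base exon was included at 68.4%, 58.7% and 57.8% in the siSFSWAP libraries, against 86.1%, 80.2% and 81.1% in the siNT libraries. All siSFSWAP libraries lay below all siNT libraries, and the change was −20.9 points (adjusted p = 2.44e-06; 0.21 with limma on the log2 odds). The 48-base form was at 41.7 ± 6.6% in siSFSWAP and 68.9 ± 6.0% in siNT (SD, n = 3 each), a change of −27.1 points (adjusted p = 3.03e-06; 0.19 with limma on the log2 odds). Without 1 library the change of the 63-base exon ranged from −24.2 to −18.9 points, and the adjusted p stayed at 0.0011 or less. Both lengths are multiples of 3. Reads at the 5′ splice site that both forms use count for each, so 68.9% in siNT is not the share of the 48-base form.

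In PSMG1, scaled to the library, the reads that include the exon differed more between the groups than the skipping reads. Inclusion reads numbered 184, 107 and 94 in siSFSWAP and 546, 266 and 246 in siNT, or 5.16 ± 0.81 CPM in siSFSWAP and 11 ± 1.0 in siNT (SD, n = 3 each). The skipping reads numbered 52, 46 and 42 in siSFSWAP and 54, 40 and 35 in siNT, or 1.96 ± 0.37 CPM in siSFSWAP and 1.45 ± 0.41 in siNT, and the libraries overlapped (two-sided exact permutation test, p = 0.3). In PSMD11 exon 11, by comparison, skipping reads were 18.5 times and inclusion reads 0.713 times the siNT level, against 1.35 and 0.468 times in PSMG1. These ratios are scaled to the library and not to the gene, so they also hold the change of the whole gene. Spliced reads of the whole gene were at 56.8% of siNT in PSMG1 and 88.3% in PSMD11. The difference between the 2 exons was not tested. PSMG1 exon 2 of 107 bases was at 98.7% in siSFSWAP and 99.4% in siNT.

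PSMD13 (ENSG00000185627.19), a lid subunit, had 1 called form with little depth, an unannotated exon of 80 bases at chr11:243996-244075 on the plus strand of GRCh38. It extends the annotated exon 3 of 35 bases upstream and was at 88.2%, 62.4% and 62.4% in siSFSWAP, against 96.0%, 96.0% and 100% in siNT (change −26.3 points, adjusted p = 0.038). Only 2, 3 and 5 reads skipped it in siSFSWAP and 2, 1 and 0 in siNT, and the adjusted p was 0.18 without siSFSWAP library b, 0.33 without c, 0.057 without siNT library b and 0.083 without c. The annotated 35-base exon shares those skipping reads and the 5′ splice site, where reads count for both forms. It was at 94.5 ± 3.2% in siSFSWAP and 99.5 ± 0.43% in siNT (SD, n = 3 each) and did not pass the test (adjusted p = 0.095).
PSMD13 80-base form: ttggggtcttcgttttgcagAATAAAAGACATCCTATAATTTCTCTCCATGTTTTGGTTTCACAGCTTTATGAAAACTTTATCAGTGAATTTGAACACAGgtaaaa

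PSMC1 (ENSG00000100764.14), an ATPase of the base, had 5 forms of exon 5 that were past the adjusted p and lower in siSFSWAP, with changes of −15.5 to −4.66 points. With limma on the log2 odds all 5 missed the threshold, with adjusted p values of 0.0799 to 0.0827. All 5 share the skipping reads, 14, 10 and 20 in siSFSWAP and 7, 2 and 0 in siNT. The annotated exon 5 of 11, with 186 bases at chr14:90263662-90263847, was at 96.5%, 95.8% and 92.3% in siSFSWAP, against 99.2%, 99.4% and 100% in siNT (adjusted p = 0.00027), and was singled out after its values were seen. The largest change was in a form of 47 bases that lies in the 5′ untranslated region of another PSMC1 transcript. It was at 82.5 ± 6.2% in siSFSWAP and 98.0 ± 1.8% in siNT (SD, n = 3 each). That form had the fewest inclusion reads, 154, 74 and 93 in siSFSWAP and 274, 120 and 106 in siNT. With skipping reads shared, the size of the change depends on the inclusion reads counted for each form.

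PSME3 encodes a subunit of the nuclear activator PA28 gamma. Its exon 2 of 33 bases was included at 98.7 ± 1.1% in siSFSWAP and 99.9 ± 0.11% in siNT (SD, n = 3 each), with 3, 2 and 7 skipping reads in siSFSWAP and 0, 1 and 0 in siNT. The unannotated forms of 63 and 19 bases changed by −5.56 points (adjusted p = 0.025) and −4.99 points (adjusted p = 0.022). Without siSFSWAP library c, which held 7 of the skipping reads of the annotated exon, the adjusted p was 0.41 for the annotated exon, 0.36 for the 63-base form and 0.35 for the 19-base form. The annotated exon was singled out after its values were seen, and of the 6 fits without 1 library it passed in 1, without siNT library b.

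Other exons were included more. PSMD4 (ENSG00000159352.16) encodes a ubiquitin receptor of the base, and its exon 5 of 10, a coding exon of 69 bases, was at 97.4%, 95.6% and 98.1% in siSFSWAP, against 95.3%, 92.2% and 92.8% in siNT (adjusted p = 0.021; singled out after its values were seen). Its skipping reads were 21, 19 and 10 in siSFSWAP and 65, 47 and 39 in siNT. Forms of 66 and 36 bases of that exon rose by 9.93 points (adjusted p = 0.0049) and 7.59 points (adjusted p = 0.043), with overlap between the groups for the 36-base form. For the 69-base exon the adjusted p was 0.20 without siSFSWAP library a and without c, 0.12 without siNT library b and 0.069 without c. The 66-base form had 0.087 without siSFSWAP library a and 0.11 without c. The 36-base form had 0.27 without siSFSWAP library a, 0.32 without c, 0.18 without siNT library b and 0.14 without c, and it missed the threshold at a mean of at least 50 reads (0.058). The 66-base form begins 3 bases later at a site without the AG that ends nearly all introns, which the sequences show.
PSMD4 69-base exon: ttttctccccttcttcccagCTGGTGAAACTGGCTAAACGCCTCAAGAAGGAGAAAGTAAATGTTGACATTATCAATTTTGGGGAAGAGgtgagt
PSMD4 66-base form: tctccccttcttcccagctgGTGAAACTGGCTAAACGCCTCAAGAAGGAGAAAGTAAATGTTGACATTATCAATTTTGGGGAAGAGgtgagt

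In PSMB3, a core beta subunit, forms of 129 and 101 bases of exon 4 rose by 7.70 and 7.71 points (adjusted p = 0.043 and 0.042). The 129-base form is unannotated, and the 101-base form belongs to a transcript annotated for nonsense-mediated decay. The annotated exon of 178 bases was at 95.9 ± 0.64% in siSFSWAP and 91.6 ± 2.1% in siNT (SD, n = 3 each; adjusted p = 0.051). The shared skipping reads were 21, 10 and 16 in siSFSWAP and 68, 45 and 55 in siNT. Of the 6 fits without 1 library the 129-base and 101-base forms passed in 1, without siNT library a, with an adjusted p of up to 0.27 in the others (without siSFSWAP library a). PSMA1, a core alpha subunit, had an exon of 307 bases in the 5′ untranslated region of an alternative transcript at 15.5%, 10.7% and 16.5% in siSFSWAP, against 7.40%, 3.84% and 2.44% in siNT, a rise of 9.68 points (adjusted p = 0.00032; 0.17 with limma on the log2 odds). In PSMD6, a lid subunit, a coding exon of 159 bases was at 3.43 ± 2.1% in siSFSWAP and 1.27 ± 1.0% in siNT (SD, n = 3 each; adjusted p = 0.044; 0.40 without siSFSWAP library c), the libraries overlapped, and the exon was singled out after its values were seen.

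Of the exon events not past the adjusted p the 6 with the largest differences at 50 or more reads, taking 1 per gene, included 9.64 points in a 278-base exon of a PSMD2 transcript annotated for nonsense-mediated decay (97.4 ± 1.5% in siSFSWAP and 87.8 ± 4.7% in siNT; SD, n = 3 each; adjusted p = 0.13). Without siNT library a the PSMD2 exon passed (12 points, adjusted p = 0.027), as did a 141-base form of the PSMB3 exon (8.56 points, adjusted p = 0.0078), which was at 7.38 points with all libraries (adjusted p = 0.053). The difference was −6.91 points for PSME2 exon 2 of 33 bases (adjusted p = 0.19), 5.83 for a 338-base form in PSME4 (adjusted p = 0.76) and 4.33 for PSMD9 exon 3 of 212 bases (adjusted p = 0.59).

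**Figure D3:**
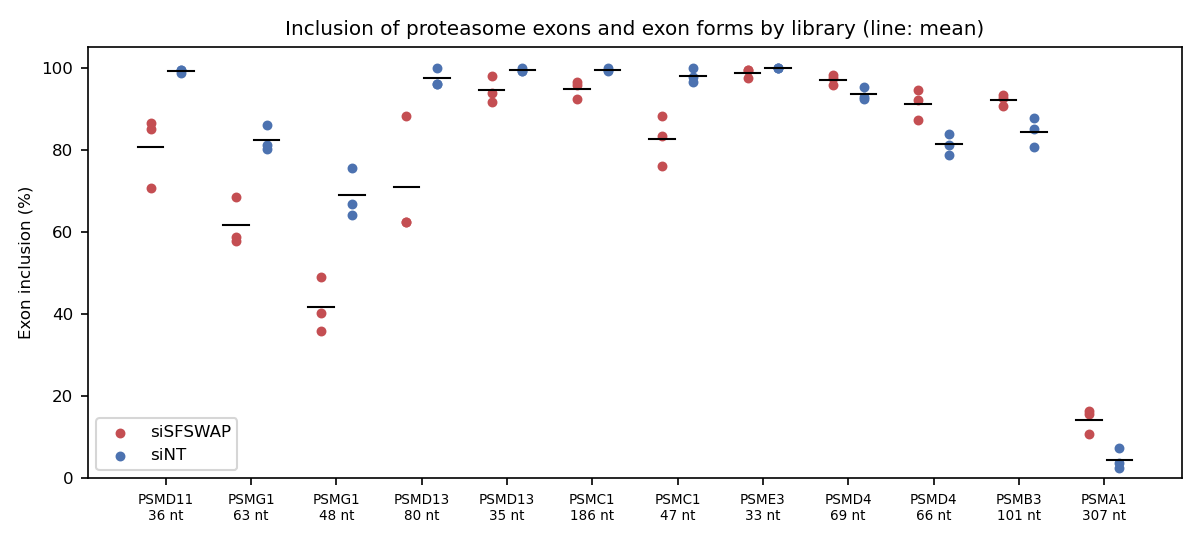
Inclusion (%) of 12 proteasome exons and exon forms in each library (points; line, mean of 3 libraries), named by gene and length. PSMD11, PSMG1, PSMD13, PSMC1 and PSME3 are lower in siSFSWAP, and PSMD4, PSMB3 and PSMA1 are higher. Forms of 1 exon share their skipping reads, and reads at a splice site they share count for each form.

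Most proteasome exons were included in nearly all transcripts in both groups. The median inclusion of the 242 events was 98.9%, 98.4% and 97.8% in the siSFSWAP libraries, against 98.9%, 98.3% and 98.4% in the siNT libraries. All siSFSWAP libraries lay below all siNT libraries in 28 events, against 9.03% of all tested events, and above them in 24, against 14.2%. By role, events past the adjusted p were 0 lower and 1 higher of 36 in core alpha genes, 0 and 2 of 36 in core beta genes, 5 and 3 of 75 in base genes, 2 and 1 of 44 in lid genes, 2 and 0 of 9 in core chaperone genes, and 3 and 0 of 31 in activator genes.

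The amount of spliced RNA was read from the same junctions, as the CPM of a gene defined above for SFSWAP. These sums stand in for gene counts and also move with splicing, since an included exon is read at both of its junctions and a skipped one at 1. Forms of 1 exon that differ in an end each enter the sum, so reads they share are counted more than once. Of 10780 tested genes 1681 (15.6%) were lower and 1587 (14.7%) higher in siSFSWAP at a limma adjusted p of at most 0.05. Of the 41 proteasome genes 24 were lower, 1 was higher (3 without siNT library a) and 16 did not pass. Their median log2 change was −0.31, against −0.005 over all tested genes, and in 28 of the 41 all siSFSWAP libraries lay below all siNT libraries, as in 23.2% of all genes, and in 1 they lay above, as in 21.8%. The 24 lower genes were at 56.8% to 86.2% of their siNT mean, and in 20 of them siNT library a was the lowest of the siNT libraries.

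Summed over the 41 genes, CPM were 6670, 6760 and 6390 in the siSFSWAP libraries, against 7700, 8610 and 8520 in the siNT libraries. By role the mean sum in siSFSWAP was 76.2% of that in siNT for core alpha genes, 76.3% for core beta, 83.9% for base, 77.0% for lid and 79.0% for activators. In the roles with fewer tested genes it was 68.5% for core chaperones, 93.0% for base chaperones, 107% for PSMB10 and 103% for PSMF1. PSMC4 of the base had no exon event in the table and is not in these sums. The subunit genes SEM1, of the lid, and ADRM1 have no PSM symbol and are given below with the other pathway genes.

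**Figure D4:**
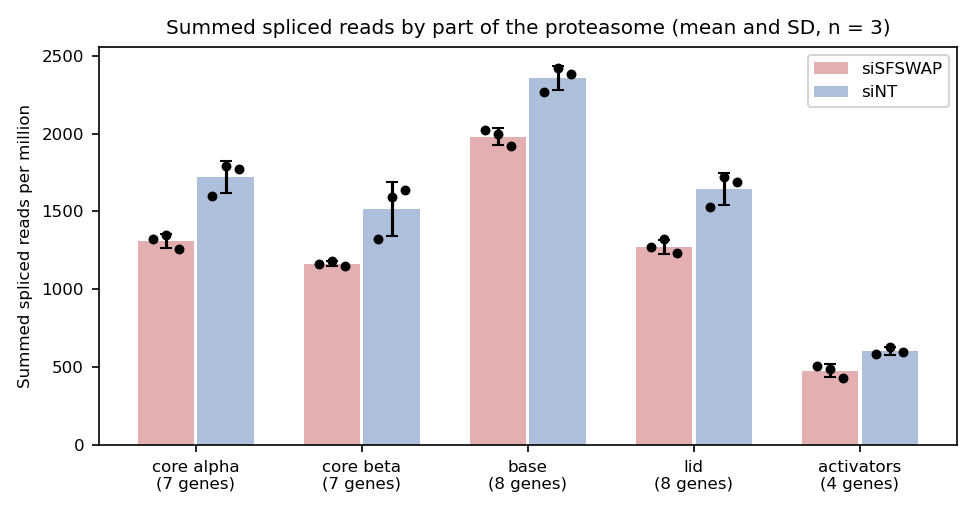
Spliced reads (CPM) summed over the tested genes of the core alpha, core beta, base, lid and activator roles, by library (points), with mean and SD (bars, n = 3). The other roles are not drawn. In each of these 5 sums all siSFSWAP libraries lay below all siNT libraries.

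In the core, 5 of 7 alpha genes were lower, with a median log2 change of −0.41. PSMA4 had 153, 141 and 134 CPM in siSFSWAP, against 192, 205 and 206 in siNT (log2 change −0.50, SE 0.08, adjusted p = 0.0017). PSMA7 was at 348 ± 14 in siSFSWAP and 480 ± 63 in siNT (log2 change −0.46), and PSMA3 at 258 ± 9.4 in siSFSWAP and 348 ± 5.2 in siNT (−0.43; SD, n = 3 each). PSMA6 changed by −0.41 and PSMA5 by −0.39. PSMA2 lay below siNT in every siSFSWAP library but missed the threshold (log2 change −0.23, adjusted p = 0.051), and PSMA1 overlapped with siNT (0.05, adjusted p = 0.73).

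Of the 7 constitutive beta genes 5 were lower. They include the genes of the catalytic subunits PSMB5, chymotrypsin-like, and PSMB7, trypsin-like. PSMB5 had 98.7, 100 and 96.8 CPM in siSFSWAP, against 135, 143 and 144 in siNT, with the groups well apart (log2 change −0.51, SE 0.08, adjusted p = 0.0012). PSMB7 was at 211 ± 5.0 in siSFSWAP and 304 ± 46 in siNT (SD, n = 3 each; log2 change −0.51, adjusted p = 0.0044).

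Among the noncatalytic beta genes PSMB2 had 125, 131 and 126 in siSFSWAP, against 163, 192 and 215 in siNT, a log2 change of −0.56. PSMB3 changed by −0.50 and PSMB1 by −0.35. PSMB4, also noncatalytic, was at 0.04. The remaining constitutive catalytic subunit, the caspase-like PSMB6, had a log2 change of −0.23 and overlapped between groups (adjusted p = 0.13). The immunoproteasome gene PSMB10 was low, at 3.79 ± 0.065 in siSFSWAP and 3.54 ± 0.46 in siNT (SD, n = 3 each; adjusted p = 0.71).

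In the base 5 of 8 measured genes were lower, with a median log2 change of −0.22. The ATPase gene PSMC5 had 194, 195 and 176 CPM in siSFSWAP, against 245, 261 and 247 in siNT (log2 change −0.41, SE 0.08, adjusted p = 0.0030). PSMC2 changed by −0.39, PSMC3 by −0.25 and PSMC1 by −0.23, and PSMD1, the scaffold subunit, by −0.21. PSMC6 did not pass (−0.21, adjusted p = 0.064), nor did PSMD2 and PSMD4, both at −0.10.

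In the lid 6 of 8 genes with a PSM symbol were lower, with a median log2 change of −0.40. PSMD13 had 179, 183 and 151 in siSFSWAP, against 236, 270 and 267 in siNT (log2 change −0.59, SE 0.09, adjusted p = 0.0014). PSMD12 had 126, 121 and 127 in siSFSWAP, against 161, 203 and 202 in siNT (−0.59, adjusted p = 0.0018). PSMD7 changed by −0.54, PSMD6 by −0.40, PSMD14, the lid deubiquitinase, by −0.39, and PSMD3 by −0.31.

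PSMD11, whose exon 11 was included less, was among the lid genes that did not pass in spliced reads: it had 115, 125 and 118 in siSFSWAP, against 136, 142 and 129 in siNT (log2 change −0.18, SE 0.08, adjusted p = 0.12). Read from the spliced junctions of the retained intron table alone, PSMD11 was instead higher by 3.06 on the log2 scale (adjusted p = 0.00013). Its spliced reads in that table are chiefly those of exon 10 to exon 12. PSMD8 was at −0.18 and overlapped.

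**Figure D5:**
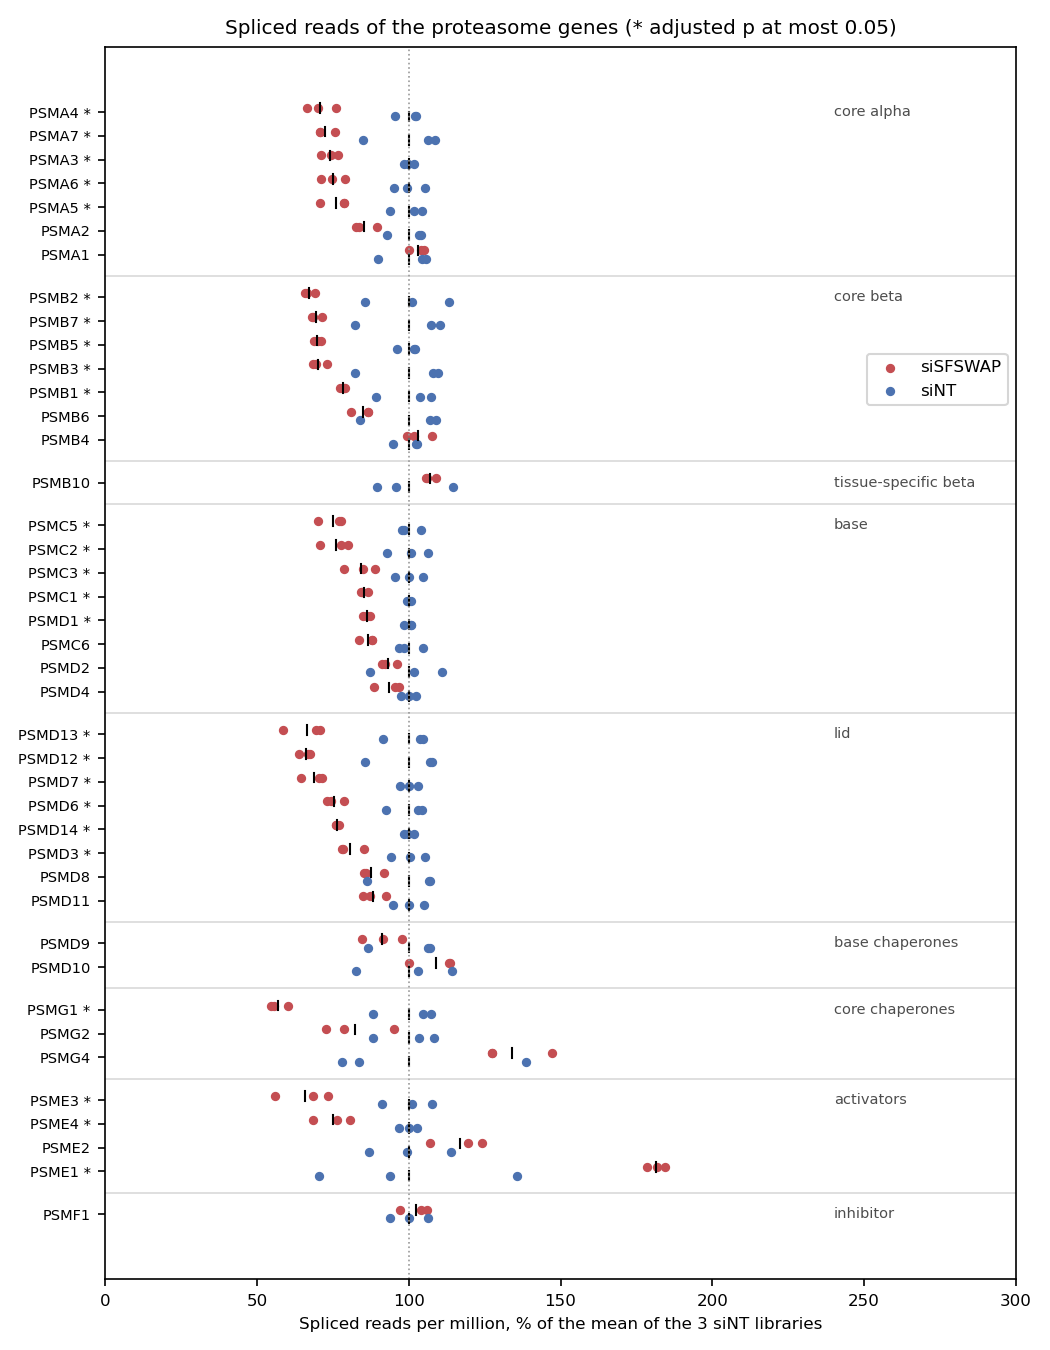
Spliced reads (CPM) of the 41 proteasome genes in each library, as a percentage of the mean of the 3 siNT libraries (black lines, group means; asterisks, adjusted p at most 0.05). The 24 lower genes with an asterisk lie left of their siNT libraries, and PSME1 lies right of them at 181%.

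PSMG1 had the largest fall of the 41 genes, with 50.5, 46.0 and 46.6 CPM in siSFSWAP, against 73.9, 87.8 and 90.0 in siNT (log2 change −0.80, SE 0.10, adjusted p = 0.00053). In the spliced junctions of the retained intron table PSMG1 fell by 1.11 on the log2 scale (adjusted p = 0.00039). The other core chaperones did not pass: PSMG4 was at 15.6 ± 1.3 in siSFSWAP and 11.6 ± 3.9 in siNT (SD, n = 3 each; log2 change 0.45, adjusted p = 0.094), and PSMG2 at −0.28. The base chaperones PSMD9 (−0.13) and PSMD10 (0.13) and the inhibitor PSMF1 (0.03) overlapped between groups, and 0 of the 3 had an unadjusted p under 0.05 with limma-trend or voom.

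The activators were called in both directions. PSME1 (ENSG00000092010.15), an interferon-inducible subunit of PA28, had 71.2, 72.2 and 69.9 in siSFSWAP, against 53.2, 36.8 and 27.6 in siNT, and siNT library a was closest to siSFSWAP (log2 change 0.90, SE 0.18, adjusted p = 0.0042). Its partner PSME2 was at 46.2 ± 3.5 in siSFSWAP and 39.5 ± 5.3 in siNT (SD, n = 3 each; log2 change 0.23, adjusted p = 0.16). PSME3 had 280, 262 and 214 in siSFSWAP, against 348, 412 and 386 in siNT (−0.61, adjusted p = 0.0020), and PSME4, the PA200 activator, changed by −0.41 (adjusted p = 0.0055).

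Of 20 other genes without a PSM symbol, of proteasome subunits, assembly, regulation and substrate delivery, 19 were measured. Of these 8 were lower, against 15.6% of all tested genes, and 0 were higher, against 14.7%. The 0 also holds at an unadjusted p under 0.05 with limma-trend and voom. The core maturation factor POMP was at 83.0 ± 4.8 in siSFSWAP and 131 ± 23 in siNT (log2 change −0.65, adjusted p = 0.0034), and the ubiquitin receptor ADRM1 at 302 ± 18 in siSFSWAP and 479 ± 120 in siNT (−0.63, adjusted p = 0.0092; SD, n = 3 each), though in the junctions of the retained intron table ADRM1 was at 0.18 (adjusted p = 0.22). ZFAND5 changed by −0.58, DDI2 by −0.49, the deubiquitinases UCHL5 and USP14 by −0.47 and −0.44, TXNL1 by −0.43 and AKIRIN2 by −0.39. AKIRIN2 overlapped between the groups (limma adjusted p = 0.047). In the fits without 1 library the adjusted p reached 0.17 for AKIRIN2 and 0.058 for DDI2. NFE2L1 was at 55.8 ± 3.0 in siSFSWAP and 56.1 ± 4.6 in siNT (adjusted p = 0.98), and VCP, the unfolding ATPase that acts before the proteasome, was at 0.03. The lid gene SEM1 was at 204 ± 11 in siSFSWAP and 207 ± 5.6 in siNT (log2 change −0.02, adjusted p = 0.86).

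The 250 bases before each gene start were searched in the RefSeq promoters (GRCh38.p14) for TGACNNNGC on both strands. This is the core of the antioxidant response element that NFE2L1 binds, and a role of NFE2L1 in these changes was not tested. Of the 41 genes 36 had an entry and 9 of these (25%) held the motif, against 10.9% of all promoters and 12% of those of genes with tested spliced reads. It was in 5 of 21 (23.8%) of the genes with fewer spliced reads and in 4 of 15 (26.7%) of the others. Examples are printed with the motif in capitals, read on the strand of the gene, at chr21:39183614-39183646 for PSMG1, chr17:38752625-38752657 for PSMB3 and chr14:24136096-24136128 for PSME1, which rose.
PSMG1: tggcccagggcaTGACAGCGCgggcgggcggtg
PSMB3: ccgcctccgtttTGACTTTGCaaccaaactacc
PSME1: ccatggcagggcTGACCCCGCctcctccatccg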

How the data were processed

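The samples were 3 siSFSWAP and 3 siNT libraries of HEK293A-TOA RNA, and their titles name them biological replicates. Per the submitters' processing notes, the authors used cutadapt 1.9.1, STAR 2.7 and GRCh38, and junctions were counted by rMATS. The deposited cells hold lists of whole-number counts, 1 per library, of reads that include or skip an intron or exon, without normalization. The authors' p-values and FDR in the deposited tables were not used. Their difference in inclusion, a score deposited per event, was read only to check that it equals group 1 minus group 2. Group 2 was taken as siSFSWAP and group 1 as siNT from the study's definition of that score. The letters a, b and c follow the order of each list, which may not be the replicate number.

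Inclusion was computed from counts divided by effective lengths. Events with 20 or more reads per library on average and 5 or more reads of each form over the libraries entered a quasi-binomial F test, two-sided, whose dispersion limma 3.58.1 (R 4.3.3) moderated across events, with a floor of 1. For gene levels, the junction reads of the skipped exon table were added up with 1 event per pair of exon start and end. Forms of 1 exon that differ in an end each entered, so reads they share were counted more than once. The sums were scaled to the library and tested with limma-trend on log2(value + 0.5), so fold changes are on that scale. P values were adjusted by Benjamini-Hochberg over all tested introns, events or genes. Tests were tried on simulated data. Annotation came from GENCODE release 44, and the authors' release may differ.

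Named were the PSMD11 intron, up to 15 members per table past the adjusted p by size of change, the 6 largest others per table at 50 or more reads and 1 per gene, up to 15 genes past the test, the largest of the rest in each role, and SFSWAP. Remaining proteasome and pathway genes are given by their log2 change, and other exceptions are marked. The members, gene lists and rules were chosen with earlier results of these data known. Alternatives covered read minimums, scaling, pseudocount, test, junctions counted and each library left out.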

Additional observations from a re-analysis of the deposited data

How the results depend on the processing

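No paired analysis was possible because the lists of 3 libraries carry no replicate numbers. Of the called proteasome introns, 1 was lower with other read minimums and tests and in each fit without 1 library, and 0 were left when introns that hold a skipped exon with the same junction were set aside, an alternative chosen after seeing the data. The change of that PSMD11 intron ranged from −58.6 to −56.0 points over the fits without 1 library. The 3 exon events called lower became 0 with limma on log2 odds, 8 at a change of at least 10 points, and 1 with only annotated exons, which was also chosen after seeing the data. Leaving out single libraries gave 1 to 4 such events, with 1 without siSFSWAP library c. The 24 genes lower in spliced reads ranged from 19 to 31 over the fits without 1 library (31 without siNT library a). Under the other settings they ranged from 17 of 29 tested to 25, with 22 when only the deepest exon event of each gene was counted. In all of these, every tested one of the 25 proteasome genes past the test kept its direction. Of the 24 genes, 19 passed in each fit without 1 library, and PSMC1, PSMC3, PSMD1, PSMB1 and PSMD3 did not. The 1 gene higher in spliced reads became 3 with the skipping junctions of the retained intron table, and it ranged from 1 to 3 over the fits without 1 library, with 3 without siNT library a. Among proteasome genes, reversals were seen only for those that did not pass the test. With the junctions of the retained intron table these were PSMA1 at −0.0137, PSMB4 at −0.121 and PSMD11 at 3.06 on the log2 scale. Without 1 library PSMA1 ranged from −0.0279 to 0.0897 and PSMF1 from −0.0114 to 0.0791. The exon tests rest on few skipping reads where inclusion is near 100%, and the depth of such exons does not show small changes.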
